A study of Mus musculus with 16 samples.

Results

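Expression of 9 genes of the blood-spinal cord barrier was examined in single cells from the mouse spinal cord before and after a dorsal column lesion. The genes were chosen by name as known genes of barrier endothelium, with earlier results of these data known, and all 9 were found once among the 55487 genes listed, of which 41193 had at least 1 count. They are Cldn5, Ocln and Tjp1 of the tight junction, the efflux pumps Abcb1a and Abcg2, the lipid transporter Mfsd2a, the organic anion transporters Slco1a4 and Slco1c1, and the glycoprotein Bsg. They were followed in endothelial cells, in the other clusters of the deposited cell table and over time after injury.

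The series held 16 mice of 8 to 10 weeks, 1 library per mouse and 2 mice in each of 8 groups. Conditional knockout mice (cKO) had the genotype Rykfl/fl,GFAPcreERT2 and control mice (WT) had Ryk+/+,GFAPcreERT2, so the Cre transgene and the tamoxifen that activates it were shared by both. Mice of each genotype were uninjured (Sham in the labels, uninjured in the methods) or had a lesion of the dorsal columns at the fifth cervical level and were taken at 1 d, 7 d or 14 d. Cre is driven by a GFAP promoter, which acts in astrocytes, so Ryk was not targeted in endothelial cells. The cords were sliced and digested with pronase in the presence of actinomycin D, a blocker of transcription, and dead cells were removed. Counts were unique molecular identifiers (UMIs), each standing for 1 captured transcript.

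Endothelial cells of brain and cord vessels are joined by tight junctions that close the path between cells, and they take up few vesicles from the blood. Nutrients and hormones enter through carriers, whereas pumps of the ABC family return drugs and other lipophilic compounds to the blood. Claudin-5, encoded by Cldn5, and occludin, encoded by Ocln, are membrane proteins of the junction, and Tjp1 encodes ZO-1, the scaffold that ties them to actin. After injury to the cord the barrier is known to leak and then to be restored in part.

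Some libraries stood apart. One WT mouse at 1 d (replicate 2) held 1 cell and was left out, which leaves 15 mice, 3 of them at 1 d and 4 at each other time. The names of the cells give another condition than the sample titles for 6 mice, all of them replicate 2, whereas the cell table gives another condition for 0 mice. Titles were followed, and the conditions in the cell names were used as an alternative. Of 17937 different barcodes over 18203 cells, 166 were found in more than 1 mouse. UMIs per mouse ran from 536263 to 9008729.

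The endothelial cluster held 4201 cells (23.1% of all cells, 20.5% of all UMIs), with 46 to 418 cells per mouse and a median of 890 UMIs per cell. Of these, 3046 cells were in it at the first clustering of the deposited table and 1155 were moved there later from Cluster 2. In the 6 mice with 4-digit animal numbers, the 496 moved cells had a Cldn5 level of 2857 CPM (UMIs of the gene over all UMIs of the summed cells, scaled to 1e6), against 2757 CPM in cells of the first clustering. In the 9 mice with 5-digit numbers, the 659 moved cells had 166 CPM of Cldn5 against 2702 CPM. Their 12 endothelial markers summed to 1348 CPM against 16315 CPM, their oligodendrocyte markers to 16496 CPM against 1853 CPM, and their median mitochondrial share was 10.96% against 2.25%. Red blood cell markers in the moved cells summed to 381698 CPM in cKO replicate 2 at 7 d, to 36591 CPM in the replicate 2 uninjured WT mouse and to 0 to 1270 CPM in the other 7 of these mice. Moved cells were 133 of 335 endothelial cells in the replicate 2 uninjured WT mouse, 134 of 344 in the replicate 2 uninjured cKO mouse and 131 of 336 in cKO replicate 2 at 1 d, against 20 to 59 cells in the other 6 mice with 5-digit numbers, so 2 of the 4 uninjured mice hold many such cells. Values are given for the whole cluster, and for the first clustering in the cases named below. Values per mouse are CPM on library totals. The fits use TMM factors, which correct library totals for composition, and it is said where all injured mice of a time lie outside the uninjured range of the whole cluster on 1 of these scales and not on the other. How many of all genes tested lie outside the uninjured range in the same way was not counted, here or in Cluster 7. With so few mice, such positions describe the barrier genes and do not set them apart from other genes.

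In 3 mice the median mitochondrial share of endothelial cells was above 4%: both replicate 2 uninjured mice (4.47% in WT, 5.79% in cKO) and cKO replicate 2 at 1 d (5.73%). The next highest mouse had 3.38%. This limit was set after the values were seen, those of Tjp1 included, so the 3 mice are not compared with the rest. The edgeR estimates over time in endothelial cells are given with and without them, some only in the closing section. Sex is not given in the labels. Xist, the RNA of the inactive X chromosome in females, was at 365 to 779 CPM in endothelial cells of 5 mice and at 0 to 18.5 CPM in the other 10, and 4 Y-linked genes summed to 0 to 19.8 CPM in those 5 mice and to 193 to 327 CPM in the others. The 5 mice were both replicate 2 uninjured mice, cKO replicate 1 at 1 d and the WT replicate 2 mice at 7 d and 14 d. Batches in the cell table equalled the replicate numbers in 16 of 16 mice. Median depth of endothelial cells in batch 1 was 2637 and 2248.5 UMIs in uninjured WT and cKO mice. It was 376 to 408 UMIs at 1 d and 7 d and 2179.5 and 5899 UMIs at 14 d. In batch 2 it was 959 and 1064 UMIs uninjured and 1048.5 UMIs in cKO at 1 d. There it was 3784 and 5377 UMIs at 7 d and 6841 and 5369.5 UMIs at 14 d. The part of depth in the differences within batches was not tested.

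Ryk, the targeted gene, was at 39.2 to 73.9 CPM in endothelial cells. In Clusters 2, 5 and 7 together, the clusters named astrocytes in the cell table, it was at 123 and 54.0 CPM in uninjured WT mice and at 66.1 and 85.1 CPM in uninjured cKO mice. At 1 d it was at 101 CPM in WT and at 23.0 and 69.0 CPM in cKO, and at 7 d at 157 and 116 CPM in WT and at 90.1 and 119 CPM in cKO. At 14 d it was at 105 and 108 CPM in WT and at 121 and 123 CPM in cKO. The genotypes overlapped while uninjured and at 7 d, cKO lay below WT at 1 d and above it at 14 d, and 1 to 180 UMIs stood behind each value. Where the tags lie relative to the deleted exons was not determined, and 3′ tags outside them would not check the deletion, so the genotype labels were not checked by these values.

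Endothelial identity was described with 12 marker genes. All 12 were detected in each cluster of the cell table, so detection alone does not tell the clusters apart. They summed to 15489 CPM in the endothelial cluster, 5904 CPM in pericytes and 79.2 to 865 CPM in the other clusters. Flt1 was the most abundant in the endothelial cluster, at 6282 CPM. Ly6c1, Ptprb, Flt1 and Egfl7 were among its 10 genes of highest fold over the other clusters, next to Cldn5, Slco1a4 and Abcb1a of the genes studied here. This is a description, because expression itself defined the clusters. In endothelial cells the 12 markers summed to 9655 CPM in the replicate 2 uninjured WT mouse and to 18334 CPM in the replicate 1 uninjured cKO mouse, the lowest and highest of the 15.

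Over all mice and times, each of the 9 genes had its highest mean in the endothelial cluster among the 17 clusters of the cell table. These levels are a description without a test, because expression itself defined the clusters. Of all UMIs of a gene, the endothelial cluster held 88.3% for Cldn5, 86.1% for Slco1a4, 84.0% for Abcb1a, 82.6% for Slco1c1, 81.8% for Ocln, 80.4% for Bsg and 78.2% for Abcg2. The share was 57.4% for Mfsd2a and 52.6% for Tjp1, which were spread over more clusters.

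Pericytes, the mural cells that wrap capillaries, came second for 8 of the 9 genes. Cldn5 was at 2696 ± 386 CPM in endothelial cells (SD, n = 15 mice) and at 962 ± 308 CPM in pericytes (n = 15), and Slco1c1 at 1790.4 ± 394 CPM and 715 ± 200.2 CPM. Endothelial values lay above pericyte values in 15 of 15 mice for every gene. For those 8 genes the gap to the second cluster was wider than the larger SD of the pair, whereas the second cluster and the next lay within the larger SD of each other. Genes in pericytes kept close to their endothelial proportions: with the 12 endothelial markers of that cluster as the scale, observed UMIs were 0.774 to 1.40 times the number that the endothelial ratio gives. The part of free RNA or joined cells was not tested.

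Other clusters departed from that ratio. Mfsd2a, which carries lysophospholipids holding docosahexaenoic acid into the brain and holds down vesicle transport in endothelium, was at 251 ± 54.1 CPM in endothelial cells (n = 15), 212 ± 103 CPM in Cluster 7 (n = 15), 155 ± 107 CPM in Cluster 5 (n = 14) and 148 ± 71.5 CPM in oligodendrocyte precursors (n = 14). The endothelial level was the higher in 9 of 15 mice against Cluster 7 and in 12 of 14 against Cluster 5, and these neighbours lay within their spread. In the uninjured cord Mfsd2a was higher in Cluster 7 (319 to 358 CPM) than in endothelial cells (215 to 313 CPM) in 4 of 4 mice, whereas after injury the endothelial level was the higher in 9 of 11. Observed Mfsd2a UMIs were 69.5 times the endothelial ratio in Cluster 7, 58.9 times in Cluster 5, 23.1 times in Schwann cells and 21.2 times in oligodendrocyte precursors. Tjp1, a scaffold of many epithelial and glial contacts, was at 1403 ± 404 CPM in endothelial cells, 749 ± 190.2 CPM in pericytes and 597 ± 129 CPM in Cluster 7, where it exceeded the ratio by 40.1 times. Slco1c1, which carries thyroid hormone and is known in astrocytes also, was at 207 ± 61.7 CPM in Cluster 7, 11.1 times its ratio. Abcb1a was at 386 ± 272 CPM in fibroblasts (n = 9), 7.35 times its ratio. Ocln was at 98.9 ± 69.4 CPM in Cluster 13 (n = 10), labelled Unk in the cell table, 13.9 times its ratio, with endothelial cells above it in 9 of 10 mice. Ependymal markers summed to 3284 CPM in Cluster 13, against at most 203 CPM in any other cluster, so by markers it is ependymal.

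**Figure D1:**
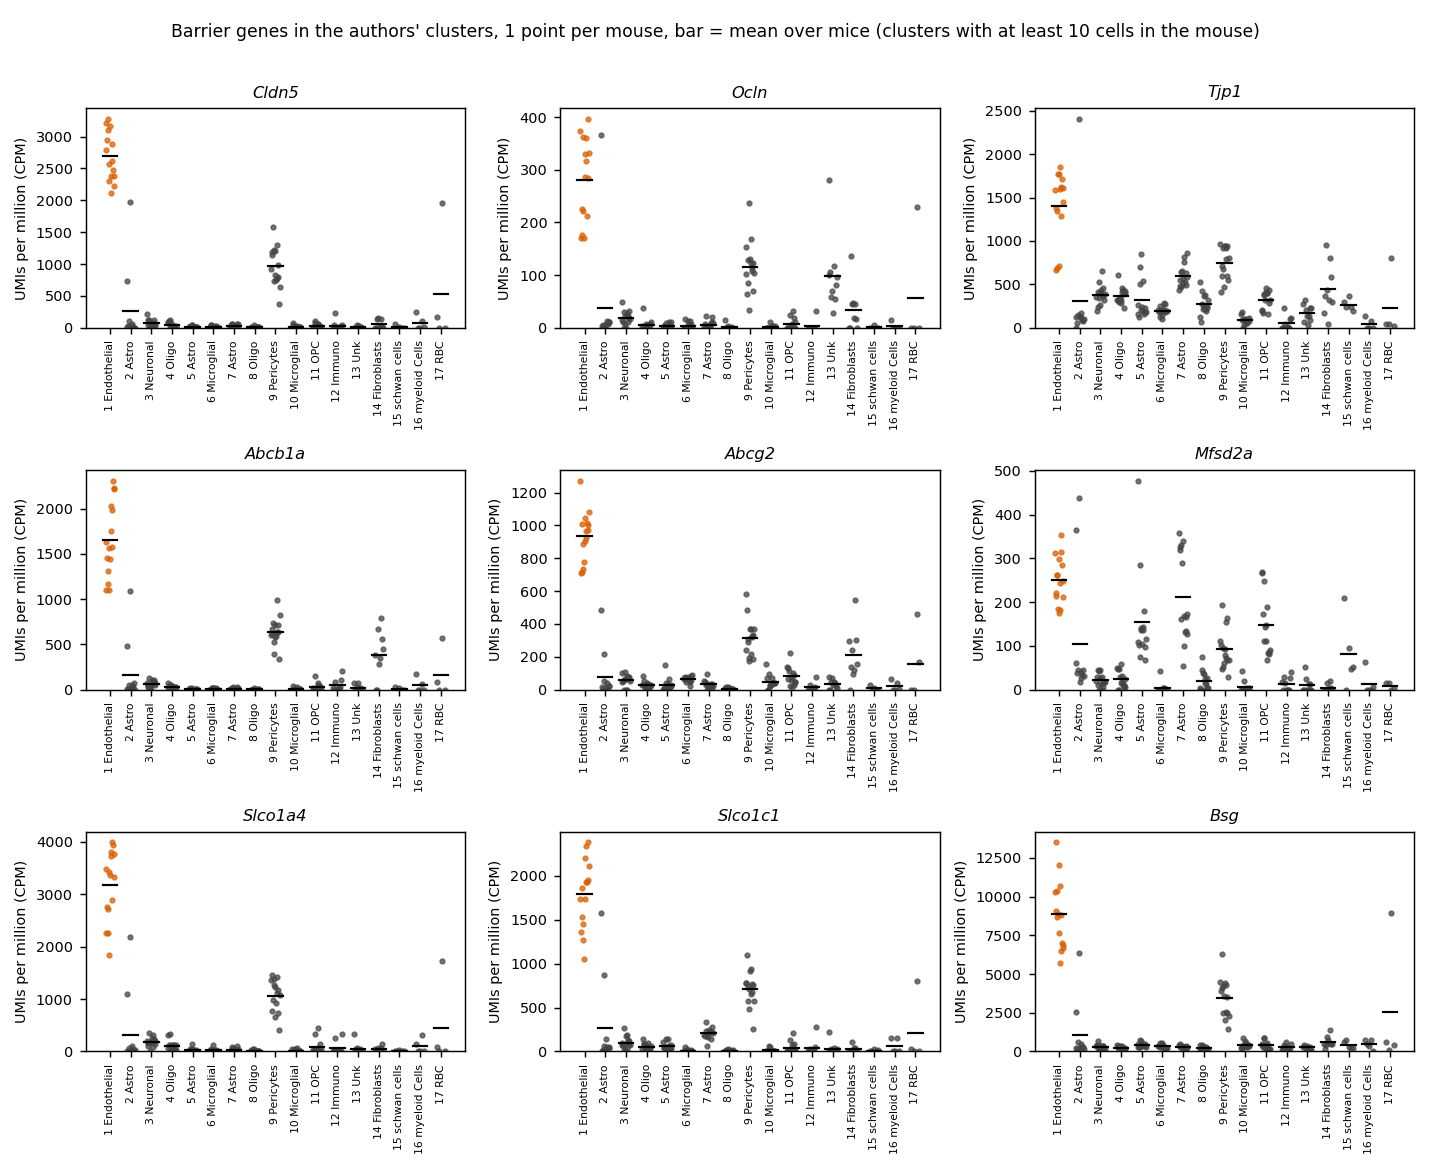
CPM of each barrier gene (vertical axis) in the 17 clusters of the cell table (horizontal axis), 1 point per mouse with at least 10 cells of the cluster, and bars at the mean over mice. Over all times, endothelial cells (orange) have the highest mean for all 9 genes and pericytes the second for 8, while Mfsd2a in Cluster 7 overlaps the endothelial values and is above them in all 4 uninjured mice.

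Shares of cells with a UMI were compared at equal depth, after thinning each cell to 500 UMIs and leaving out shallower cells. Cldn5 was then seen in 58.5% of endothelial cells (mean over 15 mice), 2.88% of neurons and 0.857% of cells of Clusters 6 and 10, named microglia in the cell table. Without thinning the shares were 71.6%, 8.31% and 3.28%. After thinning, the shares for Slco1a4 were 64.8%, 7.69% and 0.934%, for Bsg 78.5%, 11.2% and 13.9%, and for Mfsd2a 9.43%, 1.19% and 0.538%. Endothelial shares exceeded those of both other classes for 9 of 9 genes, also for Tjp1, at 42.2% against 14.7% and 6.71%.

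Injury was compared with the uninjured cord in endothelial cells by summing UMIs per mouse and fitting all 8 groups with edgeR, where each time point is the mean of both genotypes and adjusted p-values run over all 10985 genes tested. All 9 genes passed the filter on low counts, and 0 of 9 passed the adjusted p threshold of 0.05 at 1 d, where 1 of 10985 genes (0.0091%) did, at 7 d (0 genes, 0%) and at 14 d (0 genes, 0%). At an unadjusted p under 0.05 edgeR gave 572, 982 and 833 genes at the 3 times, of which 0, 0 and 1 were barrier genes. DESeq2 called 3, 0 and 1 genes, with 0 barrier genes each time. The 3 comparisons share their uninjured mice.

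Medians over the 9 genes were -0.37 at 1 d, 0.11 at 7 d and 0.10 at 14 d on the log2 scale, against -0.09, -0.04 and -0.01 over all genes tested. At 1 d, 1 of 9 estimates was above 0, and at 7 d and 14 d 5 of 9 were. Scaling by library totals alone, without the TMM factors of edgeR, moved the median over all genes to 0.11, 0.21 and 0.22, and it turned the direction of Ocln at 1 d and of Abcg2 and Mfsd2a at 7 d and 14 d. The factors were 0.762 and 0.782 in the replicate 2 uninjured mice, 0.909 in cKO replicate 2 at 1 d and 0.978 to 1.08 in the others.

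**Figure D2:**
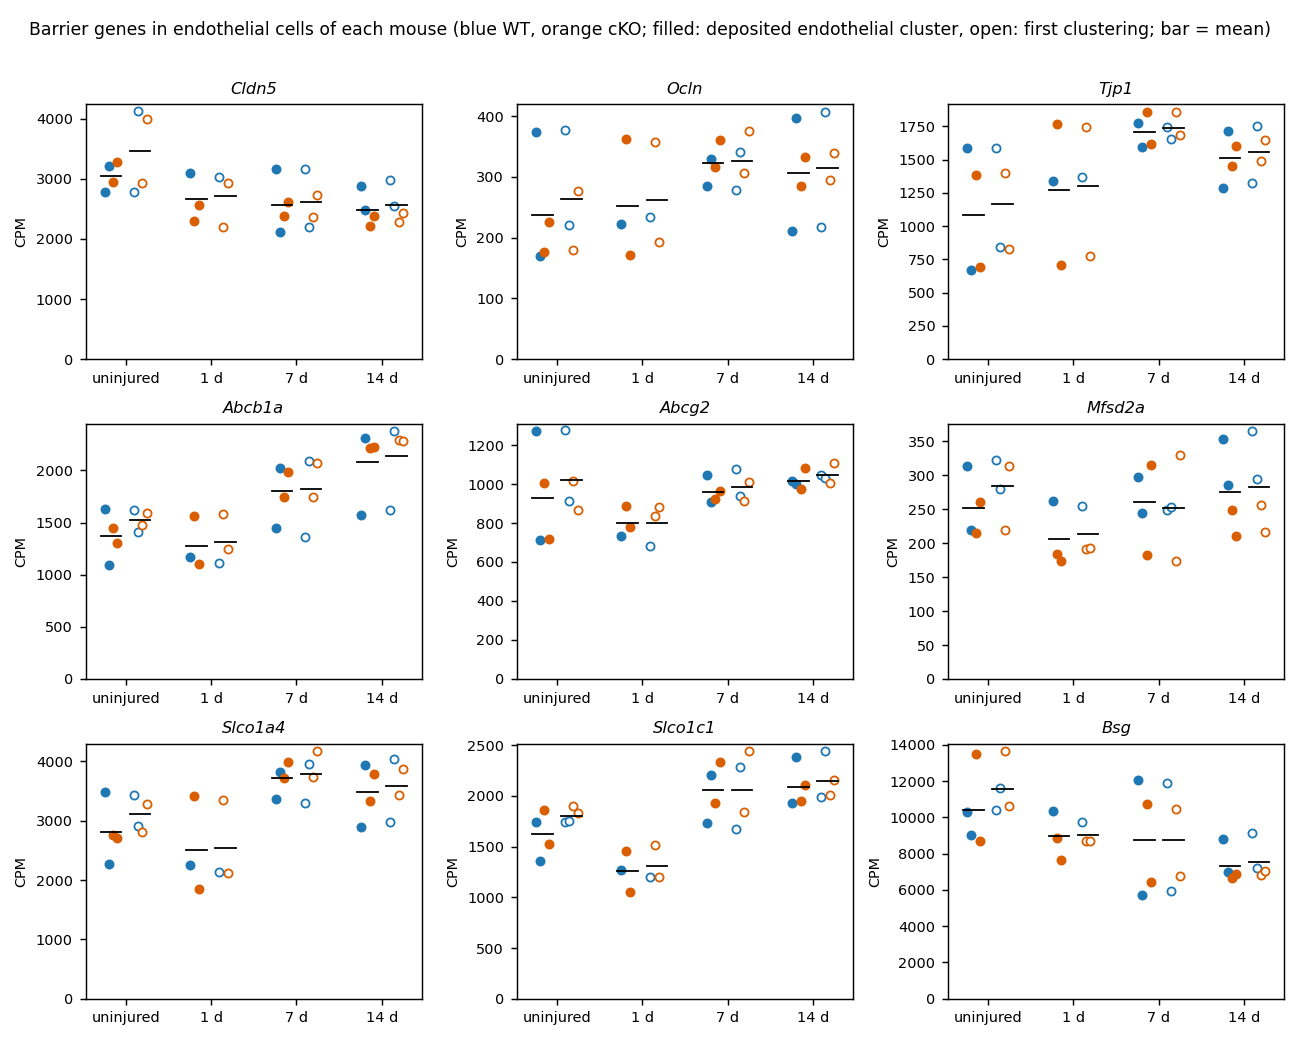
CPM of each barrier gene in endothelial cells (vertical axis) at each time (horizontal axis), 1 point per mouse, blue WT and orange cKO, with bars at the mean; filled points are the whole endothelial cluster and open points its cells of the first clustering. All 4 mice at 7 d lie above all uninjured mice for Tjp1 and all 4 at 14 d for Slco1c1 in the whole cluster. On the TMM scale both overlap. In the first clustering Tjp1 at 7 d and Abcb1a and Slco1c1 at 14 d lie above. Slco1c1 and Bsg at 1 d and Bsg at 14 d lie below there. The share of all genes that separate in this way was not counted.

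**Figure D3:**
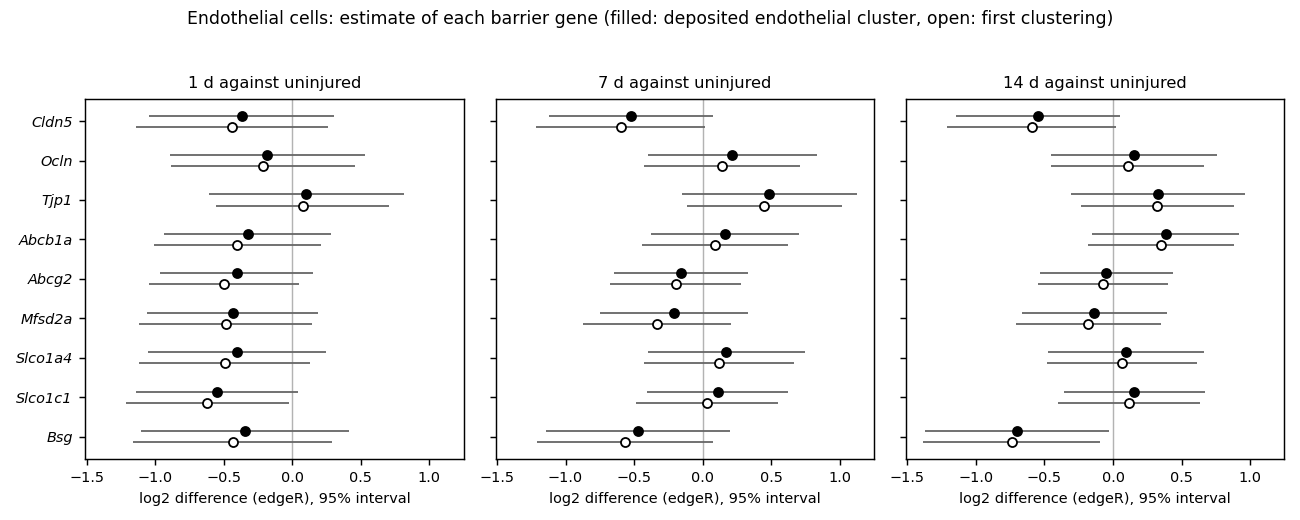
Log2 difference from uninjured mice of each barrier gene in endothelial cells (horizontal axis, edgeR with TMM scaling) with its 95% interval, at 1 d, 7 d and 14 d, for the whole cluster (filled) and the first clustering (open). Intervals hold 0 except for Bsg at 14 d in both and Slco1c1 at 1 d in the first clustering, and none passed adjustment; with library totals alone Ocln at 1 d and Abcg2 and Mfsd2a at 7 d and 14 d take the other sign.

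Cldn5 encodes the claudin that seals these junctions against small molecules. It was at 2789.9 and 3216 CPM in uninjured WT mice (replicates 1 and 2) and at 2942 and 3279 CPM in uninjured cKO mice. The 1 d values were 3104 CPM in WT and 2300.4 and 2573 CPM in cKO, at 7 d at 3160.3 and 2114 CPM in WT and at 2386 and 2614 CPM in cKO, and at 14 d at 2885 and 2480.1 CPM in WT and at 2217 and 2377 CPM in cKO. Of the injured mice, 2 of 3 at 1 d, 3 of 4 at 7 d and 3 of 4 at 14 d lay below all uninjured mice, and the replicate 1 WT mouse lay within their range at each time. In cells of the first clustering uninjured values reached 4139 CPM, and 1 of 3 mice at 1 d lay below all of them, as on the TMM scale in either set of cells. The edgeR estimates were -0.37 at 1 d (95% interval -1.04 to 0.31), -0.52 at 7 d (-1.12 to 0.08, adjusted p = 0.566) and -0.54 at 14 d (-1.14 to 0.05, adjusted p = 0.670). Within batch 1 the differences in mean log2(CPM + 10) were -0.10, -0.06 and -0.18 at the 3 times, and within batch 2 -0.35, -0.46 and -0.42, where the 1 d value rests on cKO mice alone. In cells of the first clustering they were -0.15, -0.06 and -0.13 within batch 1 and -0.44, -0.73 and -0.70 within batch 2. Without the 3 mice of high mitochondrial share the edgeR estimates in the whole cluster were -0.09, -0.15 and -0.16. Replicate 2 uninjured mice, which are left out there, were the highest of the uninjured at 3216 and 3279 CPM.

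Ocln ranged from 170.2 to 374 CPM in uninjured mice, from 171 to 362 CPM at 1 d, from 286 to 361 CPM at 7 d and from 212 to 397 CPM at 14 d. Groups overlapped at each time, with 1 of the 11 injured mice, WT replicate 2 at 14 d, above all uninjured mice. The edgeR estimates were -0.18 (-0.89 to 0.53), 0.22 (-0.40 to 0.83) and 0.15 (-0.46 to 0.76), and the first turned to 0.03 with library totals alone. Within batch 1 the differences were 0.13, 0.22 and -0.07 and within batch 2 -0.38, 0.78 and 0.86, opposite in sign at 1 d and 14 d. In cells of the first clustering they were 0.15, 0.16 and -0.04 within batch 1 and -0.49, 0.52 and 0.57 within batch 2.

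Tjp1 was at 1586 and 671 CPM in uninjured WT mice and at 1383 and 690.0 CPM in uninjured cKO mice. At 1 d it was at 1342 CPM in WT and at 1769.9 and 708 CPM in cKO, at 7 d at 1774 and 1597 CPM in WT and at 1856 and 1618 CPM in cKO, and at 14 d at 1286 and 1713 CPM in WT and at 1450.5 and 1606 CPM in cKO. All 4 mice at 7 d lay above all uninjured mice, whereas the groups overlapped at 1 d and 14 d. On the TMM scale 2 of 4 mice at 7 d lay above and the groups overlapped in the whole cluster, while all 4 lay above in the first clustering. Estimates by edgeR were 0.10 at 1 d (-0.61 to 0.82), 0.49 at 7 d (-0.15 to 1.12, adjusted p = 0.608) and 0.33 at 14 d (-0.31 to 0.97), and without the 3 mice they were 0.07, 0.22 and 0.07. Within batch 1 the 7 d and 14 d differences were 0.29 and -0.12, and within batch 2 1.23 and 1.27, so the directions at 14 d differed between batches. In cells of the first clustering they were 0.27 and -0.08 within batch 1 and 0.99 and 1.02 within batch 2.

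Abcb1a encodes the P-glycoprotein of mouse brain endothelium, and its neighbour Abcb1b is a related gene with which 3′ tags may be exchanged. Such exchange was not tested, so its counts may be uncertain to that extent. Abcb1a was at 1629 and 1096 CPM in uninjured WT mice and at 1452 and 1307 CPM in uninjured cKO mice. Values at 1 d were 1171 CPM in WT and 1562 and 1103 CPM in cKO, at 7 d at 1446 and 2026 CPM in WT and at 1747 and 1987 CPM in cKO, and at 14 d at 1571 and 2309 CPM in WT and at 2220.0 and 2224 CPM in cKO. All 3 mice at 1 d lay within the uninjured range, and at 7 d and 14 d 3 of 4 lay above it and the replicate 1 WT mouse within it. In cells of the first clustering all 4 mice at 14 d lay above the uninjured ones, by 1623 against 1622 CPM at the nearest pair, and on the TMM scale 3 of 4 did. In that clustering, on library totals, 2 of 3 mice at 1 d and 1 of 4 at 7 d lay below all uninjured mice. Estimates by edgeR were -0.33 at 1 d (-0.93 to 0.28), 0.16 at 7 d (-0.37 to 0.70) and 0.38 at 14 d (-0.15 to 0.92, adjusted p = 0.719). Within batches 1 and 2 the 14 d differences were 0.28 and 0.92, and 0.31 and 0.63 in cells of the first clustering.

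Abcg2, a pump of many drugs and of urate, ranged from 712 to 1272 CPM in uninjured mice, from 733 to 887 CPM at 1 d, from 906 to 1047 CPM at 7 d and from 974 to 1081 CPM at 14 d. Injured values lay within the range of the uninjured at all 3 times. In cells of the first clustering 2 of 3 mice at 1 d lay below all uninjured mice (from 682 CPM, against 866 CPM for the lowest uninjured mouse), and on the TMM scale all 3 in the whole cluster did. Estimates by edgeR were -0.40 at 1 d (-0.96 to 0.15), -0.16 at 7 d (-0.64 to 0.33) and -0.05 at 14 d (-0.53 to 0.44), the last 2 turning to 0.06 and 0.14 with library totals alone. On library totals the differences within batch 1 were -0.48, -0.20 and -0.18, and within batch 2 they were 0.12, 0.38 and 0.53. These were opposite in sign at each time on that scale. In cells of the first clustering they were -0.59, -0.20 and -0.15 within batch 1 and 0.03, 0.13 and 0.26 within batch 2. On the TMM scale the 1 d mice of both batches lay at 691 to 877 CPM, below the uninjured 931 to 1291 CPM. Relative to the uninjured mean of the same genotype on the TMM scale, 3 of 4 mice at 7 d and 3 of 4 at 14 d were below 0. Differences within batches were not calculated on that scale, so the opposite signs are given for library totals only.

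Mfsd2a in endothelial cells was at 313 and 220.1 CPM in uninjured WT mice and at 215 and 261 CPM in uninjured cKO mice. In the 1 d mice it was at 262 CPM in WT and at 183 and 174 CPM in cKO, at 7 d at 298 and 245 CPM in WT and at 183 and 316 CPM in cKO, and at 14 d at 353 and 286 CPM in WT and at 249 and 211 CPM in cKO. The cKO mice at 1 d, cKO replicate 1 at 7 d and cKO replicate 2 at 14 d lay below all uninjured mice, cKO replicate 2 at 7 d and WT replicate 1 at 14 d lay above them, and the groups overlapped. Estimates by edgeR were -0.43 at 1 d (-1.06 to 0.19), -0.21 at 7 d (-0.75 to 0.33) and -0.14 at 14 d (-0.67 to 0.39), where the last 2 became 0.05 and 0.10 with library totals alone. Within batch 1 the differences in Mfsd2a were -0.23, -0.15 and 0.19 and within batch 2 -0.56, 0.21 and 0.03. In cells of the first clustering they were -0.25, -0.33 and 0.20 within batch 1 and -0.67, -0.03 and -0.22 within batch 2.

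Slco1a4, a carrier of organic anions and steroid conjugates, is 1 of several related Slco1a genes whose tags may be exchanged, which was not tested. Slco1a4 ranged from 2267 to 3488 CPM in uninjured mice, from 1847 to 3421 CPM at 1 d, from 3363 to 3989.6 CPM at 7 d and from 2888.5 to 3936 CPM at 14 d. At 1 d 2 of 3 mice lay below all uninjured mice, and at 7 d 3 of 4 and at 14 d 2 of 4 lay above them. In cells of the first clustering, 3 of 4 at 7 d and 3 of 4 at 14 d lay above on library totals. On the TMM scale 1 of 4 did at each of these times in that clustering. In edgeR the estimates were -0.40 (-1.05 to 0.25), 0.17 (-0.40 to 0.74) and 0.10 (-0.48 to 0.67). Without the 3 mice of high mitochondrial share they were -0.15, 0.28 and 0.21. Within batch 1 the Slco1a4 differences were -0.16, 0.19 and -0.00 and within batch 2 -0.55, 0.65 and 0.64. In cells of the first clustering they were -0.21, 0.18 and 0.04 within batch 1 and -0.63, 0.39 and 0.35 within batch 2.

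Slco1c1 was at 1739 and 1358 CPM in uninjured WT mice and at 1866 and 1526 CPM in uninjured cKO mice. At 1 d it was at 1273 CPM in WT and at 1453 and 1055 CPM in cKO, at 7 d at 1738 and 2208 CPM in WT and at 1936 and 2336 CPM in cKO, and at 14 d at 1933 and 2381 CPM in WT and at 1948 and 2107 CPM in cKO. The means were 1622 ± 226 CPM uninjured (SD, n = 4), 1260.5 ± 199 CPM at 1 d (n = 3), 2054 ± 269 CPM at 7 d (n = 4) and 2092 ± 208 CPM at 14 d (n = 4). All 4 mice at 14 d lay above all uninjured mice, 3 of 4 did at 7 d, and 2 of 3 at 1 d lay below them. On the TMM scale 3 of 4 at 14 d and 2 of 4 at 7 d lay above all uninjured mice, with overlap at both times, and all 3 at 1 d lay below them. In the first clustering all 4 at 14 d and 2 of 4 at 7 d lay above all uninjured mice on library totals, and 1 of 4 and 2 of 4 on the TMM scale. The estimates by edgeR were -0.55 at 1 d (SE 0.28, interval -1.14 to 0.04, unadjusted p = 0.0650, adjusted p = 0.922), 0.11 at 7 d (-0.41 to 0.62) and 0.15 at 14 d (-0.36 to 0.67, adjusted p = 0.890). In cells of the first clustering all 3 mice at 1 d lay below all uninjured mice, at 1198, 1512 and 1205 CPM against 1740.1 to 1898 CPM, and 1 of 4 mice at 7 d, at 1672 CPM, did too, with an edgeR estimate of -0.62 at 1 d (unadjusted p = 0.0421, adjusted p = 0.854). Differences at 1 d, 7 d and 14 d in the whole cluster were -0.40, 0.03 and 0.11 within batch 1 and -0.53, 0.65 and 0.63 within batch 2. In cells of the first clustering they were -0.43, -0.05 and 0.14 within batch 1 and -0.60, 0.40 and 0.35 within batch 2.

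Bsg encodes basigin, a glycoprotein that escorts monocarboxylate transporters to the membrane and is abundant on barrier endothelium. It was at 10286 and 9047 CPM in uninjured WT mice and at 13503 and 8712 CPM in uninjured cKO mice. At 1 d it was at 10352 CPM in WT and at 8874 and 7642 CPM in cKO, at 7 d at 12058 and 5726 CPM in WT and at 10717.5 and 6463 CPM in cKO, and at 14 d at 8833 and 6999 CPM in WT and at 6651 and 6896 CPM in cKO. At 14 d 3 of 4 mice lay below all uninjured mice, and WT replicate 1 lay just above the lowest of them. On the TMM scale all 4 at 14 d and all 3 at 1 d lay below the uninjured mice. Estimates by edgeR were -0.34 at 1 d (-1.10 to 0.41), -0.47 at 7 d (-1.14 to 0.20) and -0.70 at 14 d (SE 0.32, -1.37 to -0.03, unadjusted p = 0.0427, adjusted p = 0.654). The 14 d difference was -0.62 within batch 1 and -0.35 within batch 2, and the edgeR estimate was -0.64 (adjusted p = 0.576) without the 3 mice of high mitochondrial share.

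In cells of the first clustering Bsg was at 10386 and 11626.5 CPM in uninjured WT mice, at 13648 and 10615.5 CPM in uninjured cKO mice, and at 9127, 7193, 6845 and 7056 CPM in the 14 d mice. All 4 mice at 14 d and, at 9759.9, 8685 and 8679 CPM, all 3 at 1 d then lay below all uninjured mice. The edgeR estimate at 14 d was -0.74 (adjusted p = 0.664). In these cells the 14 d difference was -0.59 within batch 1 and -0.64 within batch 2. All 14 d mice have 5-digit animal numbers, and the only uninjured mice in that series are the 2 of high mitochondrial share, so series and time overlap in large part. With the series in the design edgeR called 4, 78 and 221 of 10985 genes at 1 d, 7 d and 14 d and still 0 of 9 barrier genes.

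Genotype was compared in endothelial cells while uninjured, after injury and as the difference between the injury responses. In edgeR 0 of 9 barrier genes passed while uninjured (0 of 10985 genes, 0%), 0 of 9 after injury (0 genes, 0%) and 0 of 9 in the difference of responses (0 genes, 0%). Genes at an unadjusted p under 0.05 numbered 270, 311 and 353, none of them a barrier gene, and DESeq2 called 0 genes in each. Estimates of cKO against WT while uninjured ran from -0.37 for Ocln (-1.25 to 0.50) to 0.10 for Bsg (-0.85 to 1.04). After injury they ran from -0.32 for Mfsd2a (-0.80 to 0.16) to 0.20 for Abcb1a (-0.27 to 0.68), and for the difference of responses from -0.26 for Bsg (-1.38 to 0.86) to 0.54 for Ocln (-0.49 to 1.58). Without the 3 mice of high mitochondrial share, which leaves 1 uninjured mouse per genotype (Ocln at 374 CPM in WT and 177 CPM in cKO), Ocln was at -1.25 while uninjured (-2.23 to -0.27, unadjusted p = 0.0158, edgeR adjusted p = 0.441) and at 1.54 in the difference of responses (0.46 to 2.61, unadjusted p = 0.00789, adjusted p = 0.408). Uninjured mice then stand 1 against 1, and the spread behind these intervals comes from the other groups. With at most 2 mice per group, intervals of several genes reached below -1 or above 1.

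Other barrier genes were followed through lists of their roles, beside medians over all genes of -0.09, -0.04 and -0.01 at the 3 times. Of 9 other tight junction genes the median at 1 d was 0.07 (5 of 9 above 0), with Esam at -0.13 and Cgnl1 at -0.02. At 7 d and 14 d it was -0.12 (3 of 9) and 0.07 (5 of 9), with Cgnl1 at 0.60 (unadjusted p = 0.0315, edgeR adjusted p = 0.546) and 0.59 (unadjusted p = 0.0324, adjusted p = 0.654) and Esam at -0.33 and -0.48. In adherens junction genes the medians were -0.00 (4 of 8), 0.02 (4 of 8) and 0.06 (6 of 8). For 21 other transporters the median at 1 d was -0.48 with 3 of 21 above 0 and 7 at an unadjusted p under 0.05 (572 of 10985 over all genes), at 7 d 0.00 (11 of 21) and at 14 d 0.11 (11 of 21). Slc2a1, the glucose carrier, had estimates of 0.16, -0.25 and -0.37 at the 3 times. In 10 genes of transcytosis and leakage the medians were -0.12 (3 of 10 above 0), 0.01 (5 of 10) and 0.16 (7 of 10), and Tfrc, the transferrin receptor, was at -0.71 (SE 0.40, edgeR adjusted p = 0.922), 0.46 and 0.58. Among the 19 genes of the Wnt pathway that maintains the barrier the median was -0.27 at 1 d (3 of 19), 0.11 at 7 d (13 of 19) and 0.03 at 14 d (12 of 19), and Lef1 had estimates of -0.26, 0.43 and 0.54. None of the genes in these 5 lists passed the edgeR threshold in endothelial cells at any of the 3 times.

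Genes of vessel type and activation followed. At 1 d 5 of 10 venous, 4 of 8 growth, 3 of 9 capillary, 3 of 11 arterial and 2 of 8 adhesion genes had an unadjusted p under 0.05, against 572 of 10985 over all genes. The counts were 1, 0, 0, 4 and 1 at 7 d (982 over all genes) and 1, 1, 0, 4 and 0 at 14 d (833). At 1 d 10 of 10 venous genes had estimates above 0 with a median of 1.08, and 1 of them rose: Lcn2, a lipocalin of inflammation, by 6.12 (SE 0.78, edgeR adjusted p = 0.0106), the 1 gene called in that comparison. It was at 10.7, 4.15, 7.68 and 10.2 CPM in the uninjured mice and at 1046, 530.5 and 488 CPM at 1 d. The call of Lcn2 was not made in every fit with a single mouse left out. Lcn2 is also among the 10 genes of highest fold in the myeloid cluster, whose 4 markers summed to 0, 0 and 120 CPM in endothelial cells of the same 1 d mice and to 0 to 68.5 CPM in the uninjured ones. Vwf was at 1.11 (unadjusted p = 0.0415). In 8 leukocyte adhesion genes the medians were 1.49 (7 of 8 above 0), 0.34 (5 of 8) and 0.65 (6 of 8) at the 3 times, and in 8 genes of growing vessels 1.13 (7 of 8), -0.38 (3 of 8) and -0.46 (2 of 8). Capillary genes had medians of -0.71 (0 of 9 above 0), -0.23 (3 of 9) and -0.10 (4 of 9), with Spock2 at -0.93 (unadjusted p = 0.0113, edgeR adjusted p = 0.922) and Pltp at -0.79 at 1 d. Arterial genes had medians of -0.44, -0.51 and -0.97 at the 3 times with 1, 2 and 0 of 11 above 0, among them Mgp at -1.56 and Stmn2, also a neuron marker, at -0.88 at 7 d. Venous medians at 7 d and 14 d were 0.53 (10 of 10) and 0.33 (9 of 10). The part of capillary, venous and arterial shares of the cells in the values of the 9 genes was not tested.

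Relatives of the 9 genes and partners of basigin were the last lists. For 10 family relatives medians were 0.08, -0.02 and 0.33, with Slco2b1 at -0.69 at 1 d (unadjusted p = 0.0337, edgeR adjusted p = 0.922). Of 3 basigin partners tested, 2 were above 0 at 1 d, 0 at 7 d and 0 at 14 d, with medians of 0.05, -0.61 and -0.68. The cyclophilins Ppia and Ppib, extracellular ligands of basigin, were at -0.68 and -0.70 at 14 d (edgeR adjusted p = 0.654 for both).

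Pericytes were tested with all injured groups against both uninjured groups. In edgeR 0 of 9 barrier genes passed (0 of 6876 genes, 0%), with 278 genes at an unadjusted p under 0.05, 1 of them a barrier gene, and 0 genes by DESeq2. Estimates ran from -0.68 for Bsg (SE 0.33, adjusted p = 0.994) to 0.10 for Tjp1. In Clusters 6 and 10, 7 barrier genes could be tested and 0 of 7 passed in edgeR (12 of 9268 genes, 0.129%), with 946 genes at an unadjusted p under 0.05, 1 of them a barrier gene (Tjp1), and 71 genes by DESeq2, 0 of them barrier genes. Abcg1, a relative of Abcg2 that exports sterols, rose there by 5.76 (SE 1.03, edgeR adjusted p = 0.0366). Cluster 10 made up 9.98% to 27.1% of the UMIs of both clusters in the 3 uninjured mice with enough cells and 30.8% to 60.6% in the 11 injured mice. In the same test 2 of the 10 genes of highest fold in Cluster 10 passed, and both rose (Spp1 7.07, Lpl 3.83). Of the 10 in Cluster 6, 2 passed, and both fell (P2ry12 -1.32, Gpr34 -1.31). The part of this mix in the estimates was not tested. Tjp1 had the lowest estimate there at -0.64 (adjusted p = 0.430) and Slco1a4 the highest at 3.71, with an interval of -2.36 to 9.79.

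Clusters 2, 5 and 7 together were not read as 1 cell class, since the markers of Cluster 2 are mixed. Its 10 genes of highest fold hold the neuronal marker Nefl and 0 astrocyte markers. Yet its 8 astrocyte markers summed to 7975 CPM, against 15597 CPM in Cluster 5 and 12841 CPM in Cluster 7. Oligodendrocyte markers summed to 21203, 13540 and 1902 CPM in Clusters 2, 5 and 7, and neuron markers to 2537, 2083 and 163 CPM. Over the 3 clusters, 0 of 8 barrier genes passed in edgeR (0 of 11769 genes, 0%), with 698 genes at an unadjusted p under 0.05, 1 of them a barrier gene, and 0 genes by DESeq2. That gene was Mfsd2a, at -1.06 (SE 0.27, interval -1.63 to -0.48, adjusted p = 0.834), and with the animal number series in the design it passed at -1.01 (adjusted p = 0.0257). Taken alone, Cluster 2 gave -1.16 and Cluster 5 -1.07 (adjusted p of at least 0.999 in both).

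Cluster 7 was then examined alone, a choice made after its Mfsd2a values were seen. Mfsd2a was at 358 and 319 CPM in uninjured WT mice and at 326 and 331 CPM in uninjured cKO mice. At 1 d it was at 161 CPM in WT and at 288 and 340.2 CPM in cKO, at 7 d at 53.1 and 99.4 CPM in WT and at 168 and 132 CPM in cKO, and at 14 d at 166 and 134 CPM in WT and at 173 and 127 CPM in cKO. All 4 mice at 7 d, all 4 at 14 d and 2 of 3 at 1 d lay below all uninjured mice, on the TMM scale also. Few molecules stood behind some of these values, with 5 UMIs in WT and 8 in cKO replicate 1 at 1 d and 2 in WT and 6 in cKO replicate 1 at 7 d. The remaining mice had 25 to 131 UMIs. Means were 334 ± 17.2 CPM uninjured (SD, n = 4), 263 ± 92.2 CPM at 1 d (n = 3), 113 ± 48.9 CPM at 7 d (n = 4) and 149.8 ± 23.1 CPM at 14 d (n = 4).

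Over the injured groups the log2 difference of Mfsd2a in Cluster 7 was -1.20 (SE 0.23, interval -1.66 to -0.73, edgeR adjusted p = 0.0127), and it was the 1 of 7 barrier genes tested that passed, among 18 of 7966 genes (0.226%). The values that prompted this test are the ones tested, and the adjusted p does not cover that choice. Within batch 1 the differences were -0.64 at 1 d, -1.73 at 7 d and -0.97 at 14 d, and within batch 2 0.04 (cKO alone), -1.43 and -1.26. The edgeR call was lost without cKO replicate 2 uninjured (-1.14, adjusted p = 0.158), without the 3 mice of high mitochondrial share (-1.23, adjusted p = 0.0575) and when groups followed the cell names (-0.97, adjusted p = 0.0612), and DESeq2 did not make it (-1.19, adjusted p = 0.185). With the replicate block, the animal number series or the Xist level in the design, the edgeR estimates were -1.20, -1.25 and -1.21 with adjusted p-values of 0.000901, 0.000197 and 0.00591. Whether this response differed from that of endothelial cells was not tested.

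Bsg was the other barrier gene of Cluster 7 at an unadjusted p under 0.05 in edgeR, at -0.69 (SE 0.23, adjusted p = 0.338), among 554 genes at that level. Of the 18 genes called, 4 rose and 14 fell. Gfap rose by 1.57 (SE 0.27, edgeR adjusted p = 0.00229), from 136 to 300.0 CPM in uninjured mice to 276 to 1296 CPM in injured mice, where cKO replicate 1 at 14 d overlapped the uninjured range, and it was the 1 gene that DESeq2 called. Serpina3n, a serpin of reactive astrocytes, rose by 2.82 and Cd44 by 1.82, with mt-Nd3 (1.74) the other gene that rose. Beside Mfsd2a, the genes that fell were Xist (-4.54, edgeR adjusted p = 0.0217), Paqr7, Btbd17, Cldn10, Atp5g3, Enho, Cox5b, Car14, Cdk8, Gm44511, Rn7sk, Stmn1 and Atp5md. Xist is a gene of the sex of the mice, and the mice with Xist are 2 of 4 uninjured and 3 of 11 injured. The 8 astrocyte markers summed to 11216 to 15177 CPM per mouse in Cluster 7. The 12 endothelial markers summed to 13.6 to 545 CPM there, against 15489 CPM in endothelial cells. Median depth ran from 367 to 9814 UMIs per cell and was lowest in the replicate 1 mice at 1 d and 7 d. The part of depth in the Mfsd2a difference was not tested.

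**Figure D4:**
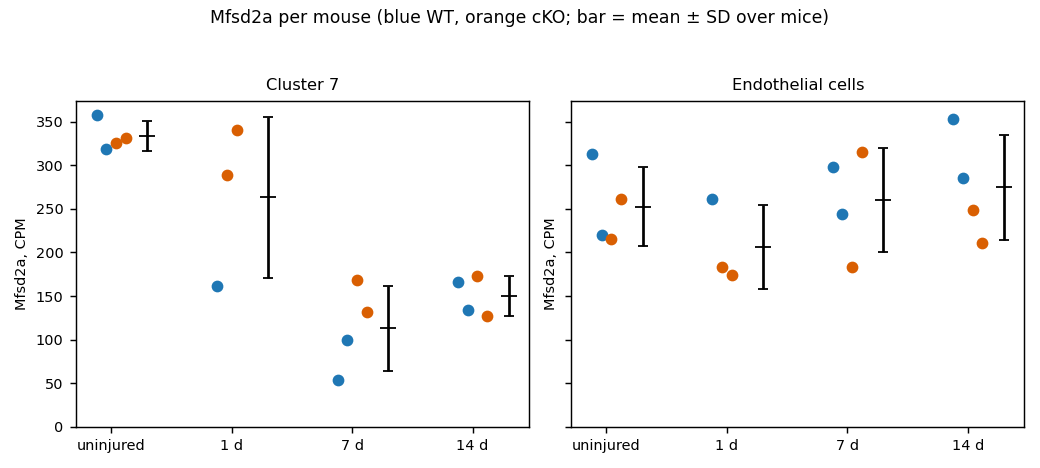
CPM of Mfsd2a (vertical axis) at each time (horizontal axis) in Cluster 7 and in endothelial cells, 1 point per mouse, blue WT and orange cKO, with mean ± SD over mice beside them. In Cluster 7 all mice at 7 d and 14 d lie below the 4 uninjured mice at 319 to 358 CPM, whereas the endothelial groups overlap.

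Genes most like the barrier genes were sought without a test. Over the mean of the 17 clusters and 17045 genes with at least 100 UMIs, the profile averaged over the 9 genes was closest to Apcdd1 (r = 0.982), an inhibitor of Wnt signalling, then to Ndnf (0.972), Car5a (0.968), Gm609 (0.966) and Scarf1 (0.965). The clusters share libraries and depth. Over the 15 mice in endothelial cells, the nearest of 10985 genes was Pcmtd1 for Tjp1 (Pearson r = 0.960, Spearman rho = 0.914, r = 0.918 without the 2 outermost mice), Slc39a8 for Slco1c1 (0.943, 0.925 and 0.904) and Taok1 for Ocln (0.938, 0.857 and 0.879). The nearest for Slco1a4 was Heca (0.929), for Abcg2 Tmem204 (0.927), for Abcb1a App (0.922), for Bsg Snrpb (0.900), for Cldn5 Ctsh (0.885) and for Mfsd2a the unnamed gene 4833420G17Rik (0.780). Spock2, a capillary gene, was the second for Slco1c1 (r = 0.941, rho = 0.982).

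Among the barrier genes themselves, over the same 15 mice, Slco1a4, Slco1c1 and Abcb1a varied together, and Mfsd2a and Abcg2 followed them less. Slco1a4 had r = 0.842 with Ocln, 0.833 with Slco1c1 and 0.822 with Abcb1a, and Abcb1a had 0.837 with Slco1c1. With those 3 genes Mfsd2a had 0.114 to 0.404 and Abcg2 0.387 to 0.472. Cldn5 had r = 0.719 with Bsg and -0.713 with Tjp1, and Bsg had -0.689 with Abcb1a. These values share depth, mitochondrial share and time after injury, and none of the 9 genes was among the 3 nearest genes of another.

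By position in the GRCm38 annotation, Slco1c1 (chromosome 6, 141524368 to 141570177, plus strand) and Slco1a4 (141805440 to 141856199, minus strand) are neighbours on the same chromosome, which also holds Abcg2 (58584523 to 58695676). Cldn5 (chromosome 16, 18776847 to 18778262) spans 1.42 kb, whereas Tjp1 (chromosome 7, 65296165 to 65527781) spans 232 kb and Ocln (chromosome 13, 100496507 to 100552718) 56.2 kb. Abcb1a lies on chromosome 5 (8660077 to 8748575), Mfsd2a on chromosome 4 (122946850 to 122961188) and Bsg on chromosome 10 (79704491 to 79711969). UMI counts come from 3′ ends and were not divided by length, so levels were not compared between genes.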

How the data were processed

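The authors aligned reads to mm10 (GRCm38) with Cell Ranger (version not given in the sources used here), filtered and clustered cells in R 4.1.2 with Seurat, and deposited UMI counts per gene and cell with a cell table that holds clusters, batch and the percent of mitochondrial counts. Those deposited counts were used as they stand. The deposited percent of mitochondrial counts was used to describe cells. All 18203 cells had the same total in the matrix and in the cell table. Doublet treatment before deposit is not given in the sources used here, and no caller was run.

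UMIs were summed per mouse and cluster (at least 10 cells; mice with at least 50 cells) and tested with edgeR 4.0.16 in R 4.3.3: TMM factors, filterByExpr with a count minimum of 10, a mean per group, the quasi-likelihood test and Benjamini-Hochberg adjustment over all genes, with 0.05 as the threshold. Intervals are 95% from the estimate, its SE and the moderated degrees of freedom. DESeq2 1.42.0 and limma 3.58.1 were used for alternatives, and Python 3.11.15 with numpy 2.4.6, pandas 2.3.3, scipy 1.17.1 and matplotlib 3.10.9 for the rest. CPM were taken over the summed cells, with a pseudocount of 10 on the log2 scale outside the fits. The fitting script was tested on simulated data.

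The replicate number marks the batch in the deposited cell table in 16 of 16 mice, so it pairs mice across groups. As a check, deviations of same-numbered mice from their group means had a median correlation of 0.0787 over 21 pairs of groups (-0.239 to 0.578), with 10 pairs over 0.1. The authors corrected batches with Harmony before clustering. In the tests here the block is an alternative.

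The text names the 9 genes and, of each list of related genes, only genes passing the threshold (at most 4, by p) or, where fewer than 2 pass, among the 2 of highest mean, and for likeness the 3 nearest genes over mice and the 5 nearest over clusters. All genes called in Cluster 7 and 4 genes called in Clusters 6 and 10 are also named, after their values were seen. The genes, lists and rules were chosen with earlier results of these data known. Cluster 7 alone, the limit on mitochondrial share, library totals alone, the Xist level as a covariate, the ratio to endothelial markers and the minimums of 3 mice and 100 UMIs in levels over clusters were chosen after the data were seen. The value of 1 gene of these lists is not reported here.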

Additional observations from a re-analysis of the deposited data

Results flagged for a closer look

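Slco1c1 in endothelial cells lay on opposite sides of the uninjured mean at different times. Relative to the uninjured mean of the same genotype on the log2(CPM + 10) scale, every mouse at 1 d was below 0, with a mean of -0.39, whereas every mouse at 7 d and at 14 d was above 0, with means of 0.34 and 0.37. These values rest on library totals in the whole cluster. Within batch 1 the differences were -0.40, 0.03 and 0.11 at 1 d, 7 d and 14 d, and within batch 2 -0.53, 0.65 and 0.63. In cells of the first clustering they were -0.43, -0.05 and 0.14 within batch 1 and -0.60, 0.40 and 0.35 within batch 2. The uninjured mice of batch 2 are the replicate 2 mice of high mitochondrial share. On the TMM scale of the fits the means were -0.54 at 1 d, 0.10 at 7 d (3 of 4 mice above 0) and 0.15 at 14 d, and in the first clustering -0.56, 0.01 (2 of 4 above) and 0.12 (3 of 4 above). Each condition held at most 2 mice, the difference between the times was not tested, and the values for WT and cKO share their uninjured mice across the 3 times.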

How the results depend on the processing

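Counts over the barrier genes were compared over the alternatives other than leaving out single mice. They are genes called, genes highest in endothelial cells and genes seen in a larger share of endothelial cells. Of these counts, 144 were held to be the same, 2 rose and 3 fell. The 9 genes had 0 calls in endothelial cells under each alternative, which does not show that their values did not differ, since 1, 0 and 0 of 10985 genes passed at 1 d, 7 d and 14 d. Values of single genes were held to be the same in 1156 cases. For an estimate this means the same direction and side of the threshold, and for a mean endothelial CPM a move smaller than its SD over mice. Estimates turned direction in 90 cases, where the smallest adjusted p was 0.533. With single mice left out, 2071 values were held to be the same by these rules, 136 estimates turned and 1 lost its call. Thresholds rest on at most 2 mice per group and on cells of a median of 890 UMIs, and intervals are wide. The lists and some alternatives were chosen with the data in view, and the cause was not tested for any of the changes below.

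With the replicate block in edgeR, no call of a barrier gene changed: Bsg at 14 d was at -0.71 (adjusted p = 0.646), Slco1c1 at 1 d at -0.52 (adjusted p = 0.984) and Mfsd2a in Cluster 7 at -1.20 (adjusted p = 0.000901).

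At 1 d in endothelial cells, Ocln turned to 0.028 with library totals alone, 0.050 with the mean over cells in limma, and 0.15 without the mice of high mitochondrial share in the whole cluster and in the first clustering. Tjp1 turned to -0.038 with the animal number series in the design, -0.012 in cells thinned to 500 UMIs and -0.0060 when groups followed the cell names. Abcb1a turned to 0.086 and Bsg to 0.14 with the mean over cells. Leaving out single mice, in either set of endothelial cells, Ocln ran from -0.42 to 0.083 and Tjp1 from -0.22 to 0.35.

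At 7 d, Ocln turned to -0.055, Slco1a4 to -0.066 and Slco1c1 to -0.023 in thinned cells. Abcg2 turned to 0.057 with library totals and 0.0042 with the mean over cells, and Mfsd2a to 0.048, 0.057 and, without the mice of high mitochondrial share, 0.038. Single mice left out gave Ocln -0.063 to 0.46, Abcb1a -0.12 to 0.28, Mfsd2a -0.65 to 0.013, Slco1a4 -0.031 to 0.29 and Slco1c1 -0.13 to 0.19.

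At 14 d, Ocln turned to -0.040 with the cell names and Slco1a4 to -0.091 in thinned cells. Abcg2 turned to 0.14 with library totals, 0.016 with the mean over cells, 0.012 with the series and 0.028 without a filter on low counts. Mfsd2a turned to 0.099 with library totals, 0.0083 with the mean over cells, 0.12 with the cell names, 0.11 without the mice of high mitochondrial share and 0.12 without them in the first clustering. Single mice left out gave Ocln -0.15 to 0.41, Abcg2 -0.15 to 0.075, Mfsd2a -0.37 to 0.087 and Slco1a4 -0.088 to 0.22. Without the mice of high mitochondrial share, Ocln was at 0.15, 0.36 and 0.30 at 1 d, 7 d and 14 d. Abcb1a was then at -0.18, 0.25 and 0.47, Abcg2 at -0.48, -0.22 and -0.11 and Slco1c1 at -0.40, 0.21 and 0.26. Mfsd2a was at -0.23 at 1 d, and Bsg at -0.29 at 1 d and -0.42 at 7 d.

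Between genotypes while uninjured, Bsg turned to -0.12 in thinned cells and -0.010 with the mean over cells. Slco1c1 turned to -0.067 without the mice of high mitochondrial share, and Abcb1a to 0.0016 in the first clustering. Single mice left out gave Ocln -0.91 to 0.070 and Bsg -0.12 to 0.30 while uninjured, and Bsg -0.41 to 0.012 in the difference of responses. In that difference Mfsd2a turned to 0.36 and Slco1c1 to 0.14 without the mice of high mitochondrial share, and Slco1c1 to 0.050 in the first clustering. In pericytes Bsg turned to 0.26 in thinned cells, and Tjp1 ran from -0.092 to 0.38. Among turns in other clusters without the mice of high mitochondrial share, Cldn5 went from -0.52 to 5.68 in Clusters 6 and 10. In Clusters 2, 5 and 7 together, Abcb1a then went from -0.56 to 2.2 and Abcg2 from 0.10 to -0.26.

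For Clusters 2, 5 and 7 together, where 0 barrier genes were called, 1 was with the series in the design and 1 in Cluster 7 alone. In Cluster 7, where 1 was called, 0 were with DESeq2, when groups followed the cell names and without the mice of high mitochondrial share, and 0 to 1 with single mice left out.

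Over all genes, calls numbered 80, 148 and 140 at 1 d, 7 d and 14 d without a filter on low counts against 1, 0 and 0, and 10, 35 and 22 between genotypes against 0. The series in the design gave 4, 78 and 221, pericytes 6 against 0, Clusters 2, 5 and 7 163 against 0, Cluster 7 56 against 18 and Clusters 6 and 10 32 against 12. In Cluster 7 library totals gave 12, mice of high mitochondrial share left out 10 and cell names 4 against 18. In Clusters 6 and 10 limma gave 147, DESeq2 71, no filter 119, library totals 24, Xist in the design 7, the mice left out 4, thinned cells 3 and cell names 3 against 12. With single mice left out, calls ranged over 0 to 6 at 1 d, 0 to 4 at 7 d, 0 to 31 at 14 d, 0 to 78 in Clusters 2, 5 and 7, 2 to 58 in Cluster 7 and 5 to 35 in Clusters 6 and 10.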
